A study of Sus scrofa with 6 samples.

Results

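The genes described here build the autophagosome, control the lysosome or work inside it. They were fixed as a list of 57 symbols covering autophagosome formation, TFEB control, cathepsins, lysosomal enzymes and lysosomal membrane proteins, and were found through the pig Ensembl identifiers that carry those symbols. Of the 57 genes, 51 were rows of the expression table and 49 passed the minimum level for testing, out of 28266 rows and 14060 tested genes. GABARAP and CTSL were rows but lay under that minimum. ATG101, ATG12, ATG4B, CTSD, CTSK and GLA were not analysed here.

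PSCs (porcine satellite cells) are stem cells of skeletal muscle that leave the cell cycle and fuse into myotubes when growth factors are withdrawn. The PSCs came from the limb muscle of 3-day-old Yorkshire male pigs and were depleted of fibroblasts by adhesion to uncoated dishes, transfected with negative control (NC) siRNA and differentiated in a medium with horse serum. RNA-seq was analysed for NC24h (24 h of differentiation) and NC36h (36 h), with 3 libraries each, named replicates 4, 5 and 6 as in the sample titles. The comparison asks which of these genes differ between an earlier and a later time of differentiation. The series title and the study's text give 36 h for the later group, while the sample labels give 48 h. The libraries were taken as NC by the letter N of their titles, and the H19 siRNA arm of the study was not analysed here. All 6 libraries share the breed, the cell type and the control siRNA. The extraction label names endometrium, but MYOD1, the myogenic transcription factor, and DES, the muscle intermediate filament, were abundant in every library, with mean FPKM of 316 and 1690 in NC24h. No label says that the libraries came from separate animals or cultures, so the p-values measure only the spread between these libraries.

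Autophagy encloses cytoplasm in a double membrane, the autophagosome, and delivers it to the lysosome, where acid hydrolases digest it. The ULK1 kinase complex starts the process, a class III PI3 kinase marks the membrane with PI3P, ATG9A and ATG2 proteins supply lipid, and conjugation enzymes attach ATG8 proteins such as LC3 to the membrane, where cargo receptors bind. TFEB and its relatives switch on lysosomal genes, and in skeletal muscle autophagy is known for clearing organelles during remodelling and for keeping fibres and satellite cells healthy.

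Autophagy and lysosome genes moved in both directions between NC24h and NC36h, with small changes for most of them. Expression was given as FPKM, which divides the fragments of a gene by its length and by the library total. Changes are on the log2(FPKM + 1) scale, as NC36h minus NC24h, with a limma adjusted p under 0.05 as the threshold. Of the 49 tested members, 28 passed (57.1%), against 50.9% of all tested genes. There were 13 higher in NC36h (26.5% of members, 16.5% of all genes) and 15 lower (30.6% of members, 34.4% of all genes). The changes ran from -1.11 for CTSC to 1.15 for ATG4D, with a median of -0.06 against -0.16 for all genes. A change of at least 0.5 in size was seen in 5 of the members that passed, while 29.1% of all tested genes passed with such a change. The 2 groups did not overlap in 32 members, 14 higher and 18 lower, where 21.0% and 42.6% of all genes (63.6% in total) were separated in those directions.

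The split between higher and lower depended on how the libraries were scaled. After median-ratio scaling, which centres the libraries on their typical gene, the median of all genes moved from -0.16 to -0.00. The members that passed then became 17 higher and 6 lower, against 24.0% and 22.2% of all genes (46.2% in either direction), with a members' median of 0.11. With quantile normalization 14 members were higher and 10 lower, against 21.6% and 25.2% of all genes. The rises of ATG2A, ATG9A, ATG10, LAMP1, MAP1LC3B and MCOLN1 lay between 0.25 and 0.31 on the deposited values and between 0.41 and 0.49 after median-ratio scaling. No member that passed on the deposited values changed its direction under either scaling, and 19 kept their call under both, 13 higher and 6 lower. The 6 were ATG5, CTSC, GLB1, LAMP2, PSAP and RB1CC1. The 12 genes called in every alternative were ATG4D, ATG9A, CTSB, OPTN, ULK1 and ULK2, all higher, and the same 6 that were lower under both scalings. The shares of all genes called under both scalings or in every alternative are not given here. These counts therefore do not tell the members apart from other genes.

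Single libraries also moved the counts. Without NC24h replicate 5 or without NC36h replicate 5, 16 members passed, 7 higher and 9 lower, and 8 were higher without NC36h replicate 4 or without NC36h replicate 6. All genes past the threshold also became fewer, with 5572, 4881, 5730 and 6029 in those 4 fits against 7156 with every library. Without NC24h replicate 5 the 12 calls lost were those of ATG10, ATG13, ATG2A, ATG7, GAA, GABARAPL1, GABARAPL2, HEXA, LAMP1, MAP1LC3B, MCOLN1 and TAX1BP1, with limma adjusted p between 0.0515 and 0.142. The same 12 were lost without NC36h replicate 5, with adjusted p between 0.0528 and 0.154. ATG13, ATG2A, ATG7 and HEXA recur in nearly all of these fits. Without NC36h replicate 4 the calls of ATG10, ATG13, ATG2A, ATG7, GABARAPL1, HEXA, MAP1LC3B, MCOLN1 and TFEB were lost, with adjusted p between 0.0565 and 0.141. Without NC36h replicate 6 those of ATG10, ATG13, ATG2A, ATG7, GABARAPL1, GABARAPL2, HEXA, LAMP1, MAP1LC3B and TFEB were lost, with adjusted p between 0.0508 and 0.128. Without NC24h replicate 4 those of ATG13, ATG2A, ATG7, GABARAPL2, HEXA and MCOLN1 were lost, with adjusted p between 0.0621 and 0.126, and without NC24h replicate 6 only that of ATG10, with an adjusted p of 0.0638. These 13 calls are therefore the less firm ones below. The other 15, those of ATG4D, ATG5, ATG9A, CTSB, CTSC, GLB1, IDS, LAMP2, MAP1LC3A, OPTN, PIK3R4, PSAP, RB1CC1, ULK1 and ULK2, passed in all 6 of these fits. The share of all genes that passed in all 6 is not given here.

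**Figure D1:**
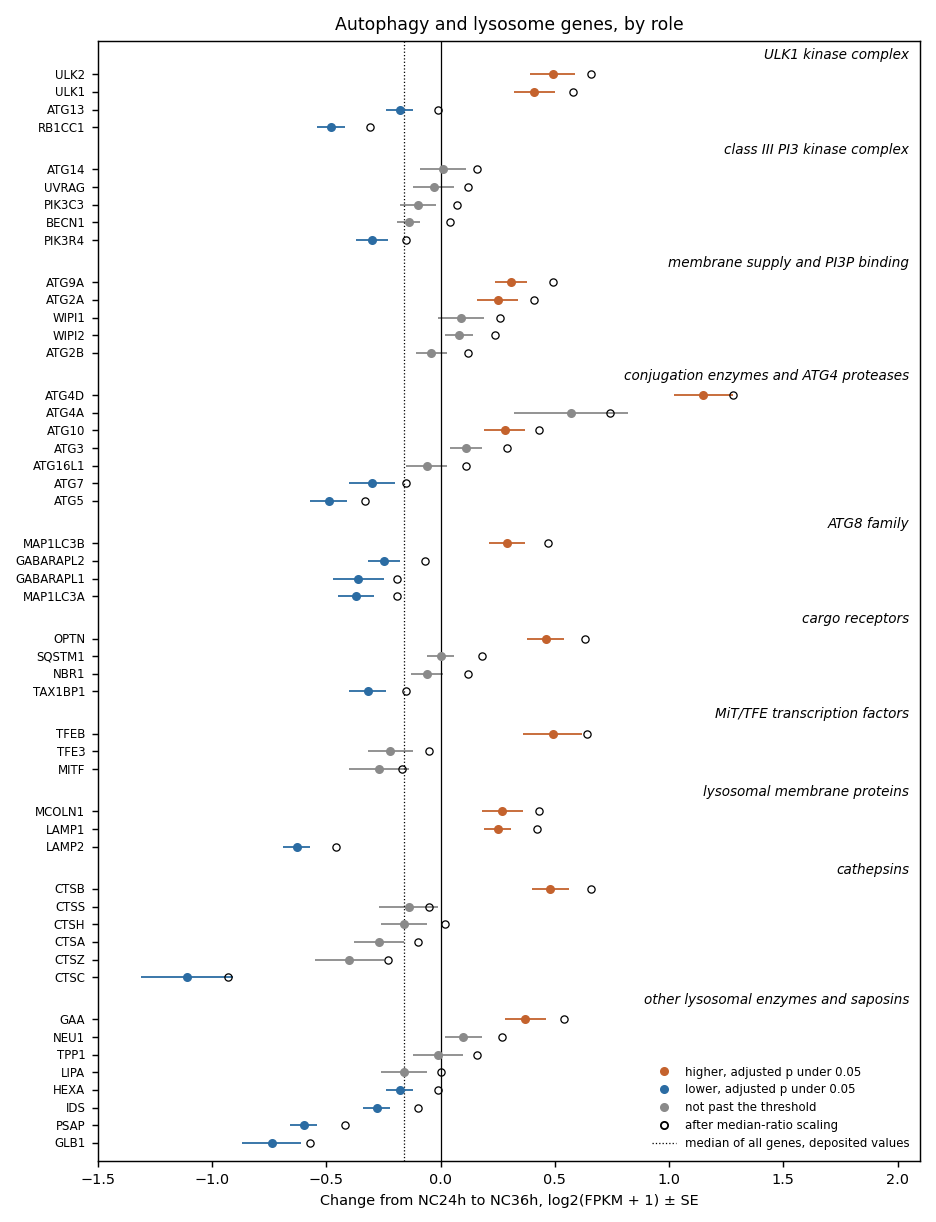
Change from NC24h to NC36h of the 49 tested members by role, on the log2(FPKM + 1) scale (x axis, filled points with SE bars, n = 3 libraries per group), with the change after median-ratio scaling as open circles. The filled points run from -1.11 (CTSC) to 1.15 (ATG4D), and the open circles lie to the right of the filled ones, since the median of all genes (dotted line) was -0.16 on the deposited values.

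The libraries held between 16337492 and 21839405 fragments, so that 1 fragment in a gene of 1 kb was worth between 0.0457 and 0.061 FPKM. Across genes, library pairs had a Pearson's r of 0.972 to 0.994 within groups and of 0.91 to 0.962 between them. Other genes moved with the groups. The summed FPKM of 10 muscle differentiation genes lay between 3310 and 7560 in NC24h and between 15600 and 17900 in NC36h, and that of 9 proliferation genes between 65.7 and 182 in NC24h and between 20.5 and 26.5 in NC36h. Of the fibroblast markers 8 of 12 were rows, summed to between 933 and 1000 FPKM in NC24h and between 831 and 1040 in NC36h, with 3 of 7 tested higher and 3 lower. COL1A2 and COL3A1 made up most of that sum and had opposite changes of -0.62 and 0.87. DCN and LUM fell by 1.48 and 1.19 (limma adjusted p = 0.00064 and 0.00149), while PDGFRB and POSTN rose by 0.90 and 0.47 (adjusted p = 0.00174 and 0.00913). FAP had a change of -0.20 and did not pass. PDGFRA, under the minimum, was at a mean of 0.486 FPKM in NC24h and 0.0859 in NC36h. Macrophage markers (9 of 14 were rows), whose cells are rich in lysosomal proteases, summed to between 2.49 and 4.0 FPKM in NC24h and between 1.39 and 2.03 in NC36h. PTPRC and TYROBP were listed at 0 in every library. CD14, the only marker of this list that was tested, went from a mean of 2.59 FPKM in NC24h to 1.18 in NC36h. Its change was -0.71 (limma adjusted p = 0.0103). The part of cell type composition and of these other programmes in the members' changes was not tested, and in bulk RNA fewer cells of a type and less RNA per cell cannot be told apart.

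In the ULK1 kinase complex, which starts autophagosome formation, both catalytic subunits rose and both tested scaffold subunits fell. ULK1 (chr14:23423693-23448130, Sscrofa11.1) was at 27.0, 28.5 and 31.5 FPKM in NC24h replicates 4, 5 and 6 and at 35.2, 40.3 and 41.4 in NC36h. Its change was 0.41 ± 0.09 (SE, limma adjusted p = 0.00941). ULK2 (chr12:59806904-59878398), the paralog of ULK1, was at 94.8, 93.7 and 75.5 FPKM in NC24h and at 121, 120.3 and 128 in NC36h. All 3 later libraries lay above the 3 earlier ones for both kinases, and ULK2 was the more abundant kinase per length in every library, with a change of 0.49 ± 0.10 (adjusted p = 0.00712). RB1CC1 (chr4:77593204-77649551), also called FIP200, the large scaffold of the complex, was at 38.3, 37.8 and 39.8 FPKM in NC24h and at 28.2, 26.7 and 27.5 in NC36h, a change of -0.48 ± 0.06 (adjusted p = 0.00147). Its groups were far apart compared with the spread within them, and its change was -0.31 after median-ratio scaling. ATG13, the adaptor that links the kinases to RB1CC1, had a change of -0.18 (adjusted p = 0.0399) on the deposited values. It did not pass after median-ratio scaling (-0.01, adjusted p = 0.901) or quantile normalization (-0.06, adjusted p = 0.428), where the alternatives span 0.0281 to 0.901.

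The class III PI3 kinase complex, which makes PI3P on the growing membrane, showed little change. PIK3R4, the regulatory subunit known as VPS15, fell by 0.30 ± 0.07 (limma adjusted p = 0.0136) on the deposited values, and after median-ratio scaling its change was -0.15 (adjusted p = 0.149, with a range over the alternatives from 0.00532 to 0.276). The catalytic subunit PIK3C3 had a change of -0.10, BECN1, the scaffold Beclin 1, one of -0.14, ATG14, which directs the complex to the site of autophagosome formation, one of 0.01, and UVRAG, which replaces ATG14 in an endosomal form of the complex, one of -0.03. These 4 did not pass, and apart from that of ATG14 their changes turned positive after median-ratio scaling (0.07 for PIK3C3, 0.04 for BECN1 and 0.12 for UVRAG). By limma and by voom on the recovered fragments 0 of the 5 genes were higher, also at an unadjusted p under 0.05, where 16.5% of all genes passed as higher by limma. BECN1 was the most abundant of them, with 43.3 to 49.6 FPKM in the 6 libraries.

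Among the genes for membrane supply and PI3P binding, 2 of 5 rose on the deposited values, where 16.5% of all genes passed as higher. The number higher became 4 after median-ratio scaling and 3 after quantile normalization, against 24.0% and 21.6% of all genes. ATG9A, the scramblase carried by the vesicles that seed the autophagosome, was at 27.9, 30.0 and 26.5 FPKM in NC24h and at 35.6, 36.0 and 34.1 in NC36h, a change of 0.31 ± 0.07 (limma adjusted p = 0.00887). The lowest NC36h library lay above the highest NC24h library. ATG2A, a lipid transfer protein, rose by 0.25 ± 0.09 (adjusted p = 0.0461), whereas its paralog ATG2B had a change of -0.04 on the deposited values and 0.12 after median-ratio scaling. The PI3P-binding proteins WIPI1 and WIPI2 had changes of 0.09 and 0.08 and passed only after median-ratio scaling for WIPI1 (0.26, adjusted p = 0.0483, with a range over the alternatives from 0.0483 to 0.918) and after both scalings for WIPI2 (0.24 and 0.20). By limma and voom 0 of the 5 genes were lower, also at an unadjusted p under 0.05, where 34.4% of all genes passed as lower by limma.

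The conjugation enzymes and ATG4 proteases held the largest rise of all members. ATG4D (chr2:69320313-69328522), a cysteine protease of the family that trims ATG8 proteins and removes them from membranes, was at 2.2, 1.93 and 1.39 FPKM in NC24h and at 4.79, 5.43 and 5.65 in NC36h. The mean rose 2.87-fold, from 1.84 ± 0.412 to 5.29 ± 0.449 (SD, n = 3), with a log2 change of 1.15 ± 0.13 (SE, limma adjusted p = 0.00138). It remained the least abundant of these 7 genes in NC24h and rested on 112 to 580 fragments per library. ATG4A, the relative that acts mainly on the GABARAP branch, was at 22.9, 20.6 and 11.8 FPKM in NC24h and at 30.5, 29.3 and 21.9 in NC36h. Replicate 6 was the lowest library of either group and the groups overlapped, so that a change of 0.57 ± 0.25 did not pass (adjusted p = 0.092), though it did without NC24h replicate 4 (0.75, adjusted p = 0.0482, where the alternatives span 0.0104 to 0.224). In the ubiquitin-like conjugation system, ATG5, which joins ATG12 and ATG16L1 in the complex that sets where LC3 is attached, was at 14.3, 12.9 and 13.7 FPKM in NC24h and at 9.9, 8.86 and 9.51 in NC36h. All 3 later values lay below the earlier ones, a change of -0.49 ± 0.08 (adjusted p = 0.0029). ATG7, the E1-like enzyme of both conjugation systems, fell by 0.30 (adjusted p = 0.0458) on the deposited values but did not pass after median-ratio scaling (-0.15, adjusted p = 0.269, with a range from 0.0322 to 0.478). ATG10, the E2-like enzyme that acts on ATG12, rose by 0.28 (adjusted p = 0.0385) on between 45 and 85 fragments per library. ATG3, the E2-like enzyme that acts on LC3, had a change of 0.11 and ATG16L1 one of -0.06, and neither passed on the deposited values. After median-ratio scaling ATG3 passed (0.29, adjusted p = 0.0381, where the alternatives span 0.0381 to 0.48) and the change of ATG16L1 turned to 0.11 without passing.

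In the ATG8 family, whose lipidated proteins coat the autophagosome and tether cargo, 1 gene rose and 3 fell of 4 tested on the deposited values. That was 25.0% and 75.0%, against 16.5% and 34.4% of all genes. After median-ratio scaling 1 was higher and 0 were lower (against 24.0% and 22.2% of all genes). MAP1LC3B (chr6:1919879-1941069), the LC3 form most used as an autophagosome marker, was at 77.6, 74.6 and 63.8 FPKM in NC24h and at 88.9, 86.8 and 88.4 in NC36h. Its change was 0.29 ± 0.08 (limma adjusted p = 0.0243), and 0.47 after median-ratio scaling. MAP1LC3A (chr17:37957830-37959505), the paralogous LC3 form, was at 34.2, 37.2 and 35.7 FPKM in NC24h and at 24.8, 29.3 and 28.5 in NC36h. These 2 LC3 genes thus moved in opposite directions without overlap between groups, with -0.37 ± 0.08 (adjusted p = 0.00976) for MAP1LC3A. GABARAPL1 (chr5:61758127-61767427) was at 31.8, 34.6 and 42.4 FPKM in NC24h and at 27.3, 27.8 and 28.5 in NC36h, a change of -0.36 ± 0.11 (adjusted p = 0.0289). GABARAPL2 (chr6:12122219-12132986), also known as GATE-16, was at 91.7, 88.0 and 80.9 FPKM in NC24h and at 78.0, 70.2 and 70.4 in NC36h, a change of -0.25 ± 0.07 (adjusted p = 0.0292). In both, every NC36h library lay under every NC24h library, but the NC24h libraries were spread unevenly, with replicate 6 the highest for GABARAPL1 and the lowest for GABARAPL2. After median-ratio scaling the changes of MAP1LC3A, GABARAPL1 and GABARAPL2 were -0.19, -0.19 and -0.07 and did not pass (adjusted p = 0.11, 0.139 and 0.506, with ranges over the alternatives from 0.00854 to 0.11, from 0.0145 to 0.139 and from 0.0116 to 0.506). After quantile normalization MAP1LC3A and GABARAPL2 passed and GABARAPL1 did not, while the rise of MAP1LC3B passed under both scalings.

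The row of GABARAP held almost no fragments, with 2, 1 and 1 in NC24h and 0, 0 and 1 in NC36h, for a length of 889 bases. The values were 0.133, 0.0687 and 0.0683 FPKM in NC24h and 0, 0 and 0.0624 in NC36h, where 3 fragments, the limit that a count of 0 allows, are worth 0.162 and 0.154 FPKM in replicates 4 and 5. No change is given for it. GABARAP is known as a broadly expressed gene, and how reads shared between genes were counted is not given in the sources used here, so the row cannot be read as absence of the transcript. The same limit applies to the other paralogs of this family.

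The cargo receptors, which bind ubiquitinated cargo and ATG8 proteins, were led in level by SQSTM1 (chr2:78752768-78763998), known as p62. It was at 167, 168 and 152 FPKM in NC24h and at 162, 164 and 162 in NC36h. The groups overlapped and the change was 0.00 ± 0.06 (limma adjusted p = 0.955), with 0.18 after median-ratio scaling and -0.03 after quantile normalization, neither of which passed. OPTN, the receptor optineurin that also takes part in the removal of mitochondria, was at 34.4, 32.6 and 37.2 FPKM in NC24h and at 47.2, 52.2 and 45.1 in NC36h. All 3 later values were above the earlier ones, with a change of 0.46 ± 0.08 (adjusted p = 0.00448). TAX1BP1 fell from 109, 104 and 89.8 FPKM to 81.0, 80.4 and 79.3, a change of -0.32 ± 0.08 (adjusted p = 0.0158) on the deposited values and -0.15 after median-ratio scaling (adjusted p = 0.261, with a range from 0.00165 to 0.261). NBR1, a large receptor that shares its domain order with SQSTM1, had a change of -0.06 and did not pass.

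**Figure D2:**
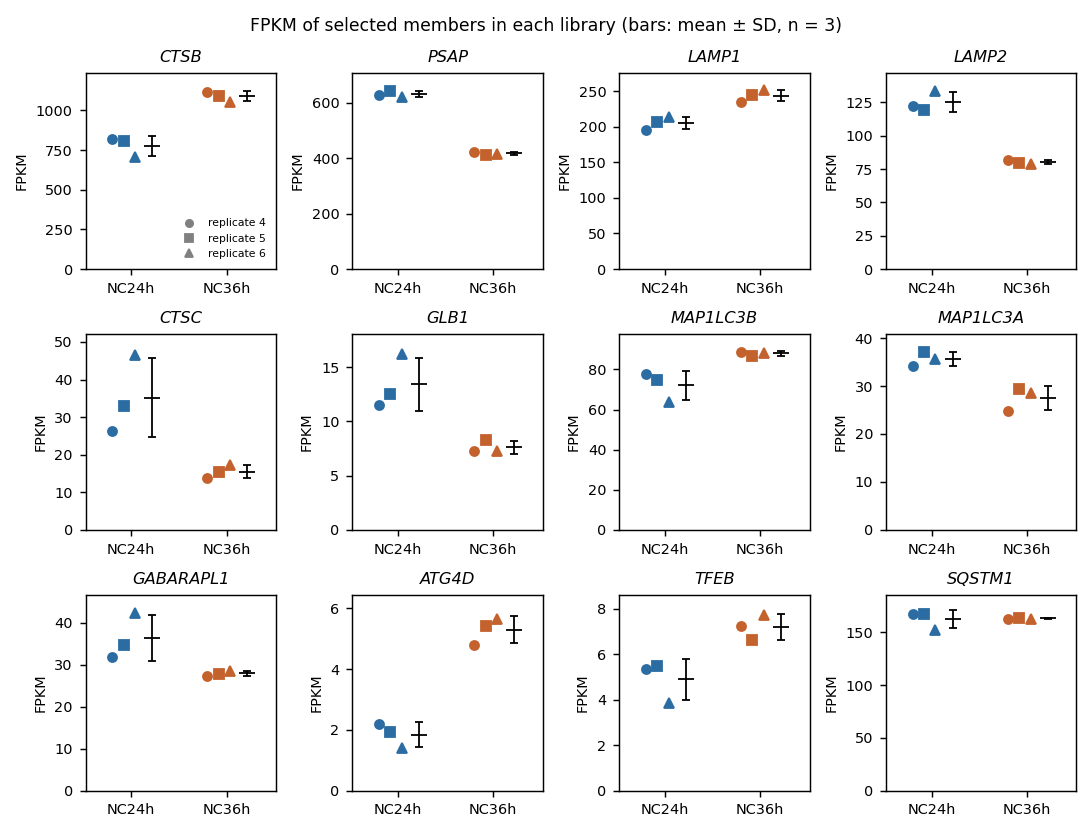
FPKM (y axis, from 0) of 12 members in each library of NC24h (blue) and NC36h (orange), with the mean ± SD of the 3 libraries in black. CTSB rises from 706 to 821 up to 1051 to 1116 and PSAP falls from 621 to 643 down to 412 to 423, while the values of SQSTM1 overlap around 162.

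Of the MiT/TFE transcription factors, which bind the promoters of lysosomal and autophagy genes, TFEB rose. TFEB (chr7:36870240-36920887) was at 5.34, 5.49 and 3.85 FPKM in NC24h and at 7.24, 6.61 and 7.74 in NC36h, a change of 0.49 ± 0.13 (limma adjusted p = 0.0217). The groups did not overlap, and NC24h replicate 6 was the lowest library, without which the change was 0.35. TFE3 (chrX:43100375-43116377) was at 21.8, 22.4 and 19.2 FPKM in NC24h and at 17.1, 16.8 and 20.2 in NC36h. The groups overlapped and the change of -0.22 ± 0.10 did not pass (adjusted p = 0.102), though it did without NC24h replicate 6 (change -0.28, adjusted p = 0.0412) and again when NC36h replicate 6 was left out (change -0.30, adjusted p = 0.0444), where the alternatives span 0.0412 to 0.734. MITF (chr13:51177356-51422096), the family member best known from pigment cells, was near the minimum, at 1.80, 1.49 and 1.27 FPKM in NC24h and at 1.05, 1.03 and 1.16 in NC36h. Its groups did not overlap but rested on 24 to 35 fragments per library, and the change of -0.27 ± 0.13 did not pass (adjusted p = 0.113), though it did without NC24h replicate 6 (-0.34, adjusted p = 0.0497, where the alternatives span 0.0497 to 0.386). By limma and voom 0 of the 3 factors were lower with all libraries, also at an unadjusted p under 0.05, where 34.4% of all genes passed as lower by limma. TFE3 was the most abundant of the 3 per length in every library.

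The lysosomal membrane proteins changed in opposite directions. LAMP1 (chr11:78600818-78617587), a heavily glycosylated protein that lines the lysosome, was at 196, 206 and 213 FPKM in NC24h and at 235, 245 and 252 in NC36h. Its change was 0.25 ± 0.06 (limma adjusted p = 0.016). LAMP2 (chrX:98586718-98623939), the paralog needed for fusion with autophagosomes and, in one isoform, for chaperone-mediated autophagy, was at 122, 119 and 133 FPKM in NC24h and at 81.8, 79.2 and 78.9 in NC36h. The LAMP2 groups were far apart, with a change of -0.63 ± 0.06 (adjusted p = 0.00097) and of -0.46 after median-ratio scaling (adjusted p = 0.00174, with a range over the alternatives from 0.000632 to 0.00953). The table gives 1 row per gene, so the LAMP2 isoforms were not separated. MCOLN1 (chr2:71602888-71613331), the lysosomal calcium channel TRPML1, was at 6.98, 7.63 and 8.14 FPKM in NC24h and at 10.2, 9.27 and 8.56 in NC36h. The groups did not overlap, although the gap between them was narrow, and the change was 0.27 ± 0.09 (adjusted p = 0.0481).

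The cathepsins, the lysosomal proteases, included the most abundant member and the one with the largest fall. CTSB (chr14:15014139-15035081), a cysteine protease long associated with myoblast fusion, was at 821, 806 and 706 FPKM in NC24h and at 1116, 1089 and 1051 in NC36h. It rose 1.4-fold, with a change of 0.48 ± 0.08 (limma adjusted p = 0.00423), and ranked above 99.7% of all rows by mean FPKM. CTSC (chr9:21726628-21761796), the dipeptidyl peptidase that activates serine proteases of blood cells, was at 26.3, 32.9 and 46.6 FPKM in NC24h and at 13.8, 15.4 and 17.2 in NC36h. Its groups did not overlap, but the NC24h libraries were spread widely, and the change of -1.11 ± 0.20 (adjusted p = 0.00478) became -0.89 without NC24h replicate 6 (adjusted p from 0.00219 to 0.0224 over the alternatives). CTSH (chr7:48084882-48106072), an aminopeptidase, was at 137, 144 and 169 FPKM in NC24h and at 122, 135 and 145 in NC36h. These overlapped, and the change of -0.16 ± 0.10 did not pass (adjusted p = 0.232) and turned to 0.02 after median-ratio scaling.

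The other cathepsins that were tested did not pass with all libraries. CTSA, which protects GLB1 and NEU1 in a complex, had a change of -0.27 (limma adjusted p = 0.0855) with groups that did not overlap, and it passed without NC24h replicate 4 (-0.38, adjusted p = 0.0148, where the alternatives span 0.0148 to 0.463). CTSZ had a change of -0.40 (adjusted p = 0.0602) and passed without NC24h replicate 4 (change -0.52, adjusted p = 0.0228) and again when NC36h replicate 6 was left out (change -0.50, adjusted p = 0.044), where the alternatives span 0.0137 to 0.206. CTSS, the protease of antigen-presenting cells, stayed between 0.859 and 1.32 FPKM. The row named CTSL lay under the minimum, at 0.876, 0.994 and 1.35 FPKM in NC24h and 0.498, 0.27 and 0.986 in NC36h, on 8 to 30 fragments. RefSeq lists CTSL as another name of CTSV, whose own row, at 61.5, 67.6 and 84.8 FPKM in NC24h and 49.9, 50.1 and 54.1 in NC36h, had a change of -0.45 (adjusted p = 0.0189). That of CTSV did not pass after median-ratio scaling (-0.28, adjusted p = 0.0664), when NC36h replicate 4 was left out (-0.43, adjusted p = 0.0598) or when NC36h replicate 5 was (-0.44, adjusted p = 0.0658), where the alternatives span 0.00973 to 0.0664. The row of CTSL alone therefore does not give the level of cathepsin L.

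Among the other lysosomal enzymes and saposins, 1 rose and 4 fell of 8 tested on the deposited values. Of all genes, 16.5% passed as higher and 34.4% as lower. The split of this role became 2 higher and 2 lower after median-ratio scaling, against 24.0% and 22.2% of all genes. It was 1 higher and 3 lower after quantile normalization, against 21.6% and 25.2%. The larger number of falls on the deposited values thus depended on the scaling. PSAP (chr14:74734185-74820645), which encodes prosaposin, the precursor of the saposins that present sphingolipids to their hydrolases, was at 629, 643 and 621 FPKM in NC24h and at 423, 412 and 415 in NC36h. The fall was to 0.66 of the earlier mean, a change of -0.60 ± 0.06 (limma adjusted p = 0.000951), and its libraries of each group lay close together. GLB1 (chr13:18878407-18978999), the acid beta-galactosidase behind the senescence stain, was at 11.5, 12.6 and 16.2 FPKM in NC24h and at 7.29, 8.29 and 7.23 in NC36h. GLB1 did not overlap between groups, with a change of -0.74 ± 0.13 (adjusted p = 0.00457) and of -0.60 without NC24h replicate 6, its highest library. GAA, the acid alpha-glucosidase that breaks down glycogen in the lysosome and is deficient in Pompe disease, rose by 0.37 ± 0.09 (adjusted p = 0.0162), from 15.6, 16.0 and 18.0 FPKM to 19.8, 21.3 and 23.9.

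IDS, which removes sulfate from dermatan and heparan sulfate, fell by 0.28 (limma adjusted p = 0.011), and HEXA, the alpha subunit of beta-hexosaminidase, fell by 0.18 (adjusted p = 0.0345). After median-ratio scaling their changes were -0.10 and -0.01 and did not pass (adjusted p = 0.207 and 0.936, with ranges over the alternatives from 0.0101 to 0.207 and from 0.0274 to 0.936). NEU1, the lysosomal sialidase, had a change of 0.10 and passed after median-ratio scaling (0.27, adjusted p = 0.0205, with a range from 0.0205 to 0.683). LIPA, the acid lipase, and TPP1, a tripeptidyl peptidase, had changes of -0.16 and -0.01, which did not pass and became 0.00 and 0.16 after median-ratio scaling.

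Added over the 51 rows on the deposited values, the members held 3220 to 3310 FPKM in NC24h and 3290 to 3320 in NC36h. Their sum thus overlapped between groups on this scale, while its make-up differed. CTSB made up 21.9% to 25.1% of this sum in NC24h and 32.0% to 33.6% in NC36h, and PSAP 19.2% to 19.4% and then 12.5% to 12.7%. By role, the summed FPKM of the cathepsins lay between 1020 and 1070 and then between 1280 and 1320, and that of the other lysosomal enzymes and saposins between 841 and 869 and then between 623 and 633. CTSB alone carried the higher cathepsin sum, since the 6 other cathepsin rows added to 234, 260 and 314 FPKM in NC24h and to 200, 216 and 233 in NC36h. The sums of the cargo receptors (316 to 344 and 319 to 331), the lysosomal membrane proteins (325 to 355 and 327 to 339) and the MiT/TFE factors (24.3 to 29.4 and 24.5 to 29.1) overlapped between groups. Sums were not taken after median-ratio scaling, which moved the median change of all genes from -0.16 to -0.00. These overlaps therefore hold for the deposited values only.

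Ratios of pairs of members within a library do not depend on a single scaling factor per library, though quantile normalization can move them. The pairs were chosen after their values were seen, so they are described without a test. PSAP was at 0.767, 0.798 and 0.88 of CTSB in NC24h and at 0.379, 0.378 and 0.395 in NC36h. LAMP2 was at 0.622, 0.576 and 0.624 of LAMP1 in NC24h and at 0.348, 0.323 and 0.314 in NC36h. In both pairs every later ratio lay far under every earlier one, and the later values were close together. MAP1LC3A was at 0.441, 0.498 and 0.56 of MAP1LC3B in NC24h and at 0.279, 0.338 and 0.323 in NC36h. RB1CC1 was at 0.404, 0.403 and 0.528 of ULK2 and then at 0.233, 0.222 and 0.214. TFEB moved the other way against TFE3, from 0.245, 0.245 and 0.201 to 0.423, 0.393 and 0.383. In none of these 5 pairs did the groups overlap. Apart from TFEB to TFE3, each pair set a gene that was lower without overlap against one that was higher without overlap. Their ratios could therefore not overlap, and this adds nothing to the values of the single genes.

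**Figure D3:**
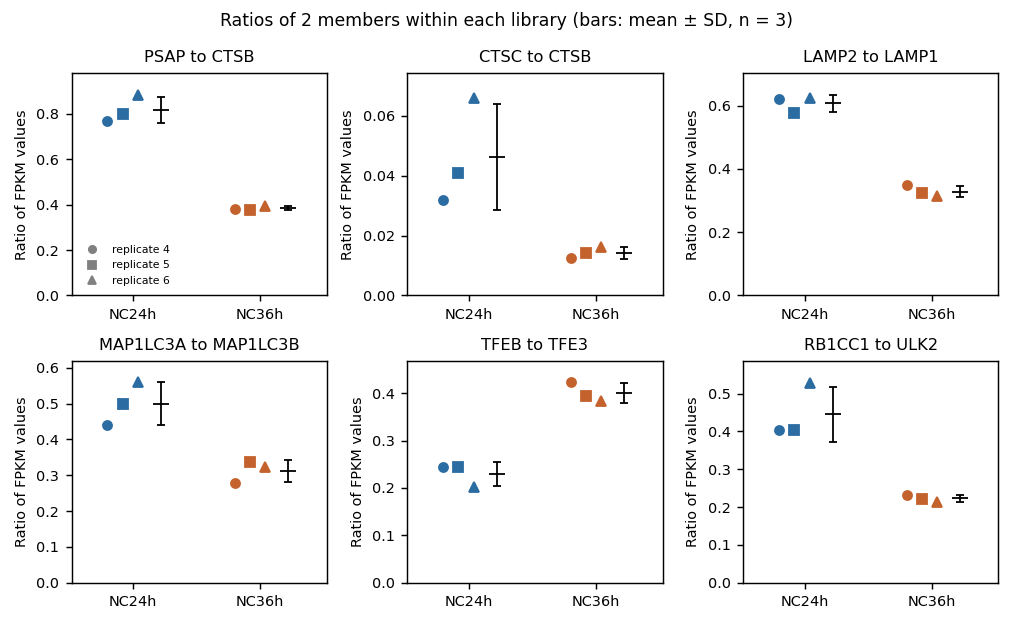
Ratio of the FPKM of 2 members within each library (y axis, from 0) for 6 pairs, with NC24h in blue, NC36h in orange and the mean ± SD of 3 libraries in black. The PSAP to CTSB ratio goes from a mean of 0.815 to 0.384 and the LAMP2 to LAMP1 ratio from 0.607 to 0.328, while TFEB to TFE3 goes from 0.23 to 0.4. The groups do not overlap in any of the 6 panels, an outcome fixed by the choice of genes for all but TFEB to TFE3.

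NC24h replicate 6 stood apart from the other NC24h libraries, with the lowest summed level of differentiation genes and the highest of proliferation genes. Among the 28 members that passed, it was the NC24h library farthest from NC36h in 12 (42.9%) and the nearest in 11 (39.3%), against 64.4% and 21.0% of all genes that passed. The median absolute change of these 28 members was 0.36 with and without it, and 27 of them also passed without it, the exception being ATG10. Over all genes that passed, the median absolute change was 0.56 with it and 0.51 without it. CTSC, GLB1 and GABARAPL1 were highest in this library, and ATG4D, ATG4A, TFEB, ULK2 and CTSB lowest.

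**Figure D4:**
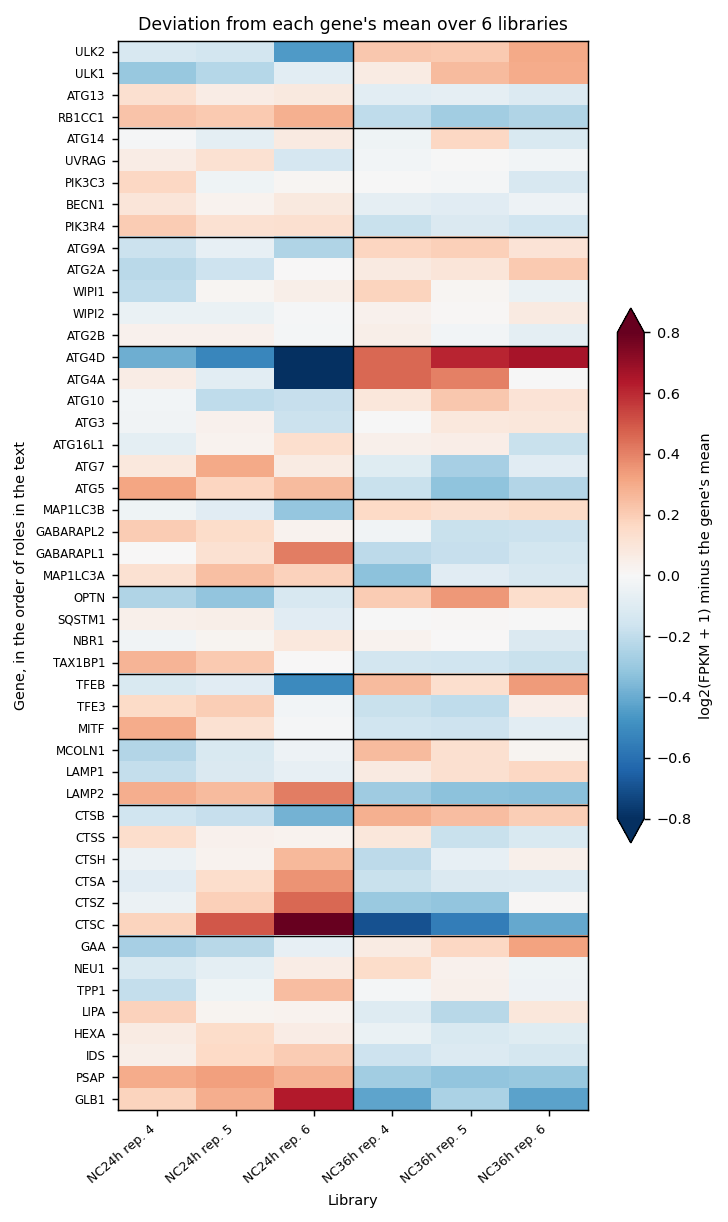
Deviation of log2(FPKM + 1) from each gene's mean over 6 libraries (colour, red above and blue below the mean, cut at 0.8 either way) for the 49 tested members (rows, by role) and the libraries (columns). CTSC, ATG4D and, in NC24h replicate 6, ATG4A have the deepest colours. CTSC and ATG4D are in opposite order between the groups, and replicate 6 is the deepest NC24h column for CTSC, GLB1, ATG4A and ATG4D.

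Other genes of these pathways were taken from 7 lists, with 195 symbols of which 144 were rows and 128 were tested. On the deposited values 16 were higher and 47 lower (12.5% and 36.7%, against 16.5% and 34.4% of all genes). After median-ratio scaling 28 were higher and 26 lower (against 24.0% and 22.2% of all genes), and the median change of -0.15 became 0.00. The list of other lysosomal hydrolases held 1 higher and 13 lower of 27 (3.7% and 48.1%), with a median of -0.40. After median-ratio scaling it held 3 higher and 8 lower, beside the same 24.0% and 22.2% of all genes, with a median of -0.22. Among them GUSB, the beta-glucuronidase, was at 47.6, 46.7 and 64.8 FPKM in NC24h and at 26.0, 25.9 and 27.5 in NC36h, a change of -0.96 ± 0.13 (limma adjusted p = 0.00194). CTSO, a further cysteine cathepsin, had a change of -1.02 and GALNS, a sulfatase acting on keratan sulfate, one of 0.49 (adjusted p = 0.00463 and 0.0101). Absence of overlap between groups was a condition for naming these genes, here and below, and 63.6% of all tested genes had no overlap.

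The lists of other lysosomal membrane proteins and transporters (1 higher and 7 lower of 21, or 2 and 4 after median-ratio scaling) and of V-ATPase subunits, the proton pump of the lysosome (1 higher and 4 lower of 10, or 2 and 4), stood beside 16.5% of all genes higher and 34.4% lower, or 24.0% and 22.2% after median-ratio scaling. GNPTAB, which builds the mannose 6-phosphate tag on lysosomal enzymes, was at 16.5, 19.3 and 24.9 FPKM in NC24h and at 9.68, 9.24 and 9.52 in NC36h, a change of -1.0 ± 0.14 (limma adjusted p = 0.00226). SLC17A5, the sialic acid exporter, fell by 0.55, while GGA1, an adaptor that sorts tagged enzymes at the Golgi, rose by 0.51 (adjusted p = 0.004 and 0.00458). Of the pump, ATP6V0A2 fell by 0.75 and ATP6V1G2 by 0.71, and ATP6V1F rose by 0.20 (adjusted p = 0.00144, 0.0123 and 0.0259). The call of ATP6V1F was lost without NC24h replicate 5 and without each of NC36h replicates 4, 5 and 6 (adjusted p = 0.0826, 0.0761, 0.0654 and 0.0566, where the alternatives span 0.00511 to 0.0826).

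In the mTORC1 and AMPK list, whose products sense nutrients at the lysosome and restrain or drive ULK1, 6 of 22 were higher and 7 lower (27.3% and 31.8%, against 16.5% and 34.4% of all genes), or 8 and 3 after median-ratio scaling (against 24.0% and 22.2% of all genes). LAMTOR1, which anchors the Ragulator complex to the lysosome, was at 60.9, 56.0 and 52.5 FPKM in NC24h and at 89.4, 93.9 and 92.7 in NC36h, a change of 0.70 ± 0.07 (limma adjusted p = 0.000969). AKT1S1, the mTORC1 inhibitor PRAS40, rose by 0.75 and RHEB, the GTPase that activates mTORC1, fell by 0.63 (adjusted p = 0.00273 and 0.00195). The AMPK catalytic subunit PRKAA1 fell by 0.44 (adjusted p = 0.0126) on the deposited values and did not pass after median-ratio scaling (-0.30, adjusted p = 0.0564) or quantile normalization (-0.25, adjusted p = 0.105), where the alternatives span 0.00576 to 0.105.

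Among mitophagy and selective autophagy receptors 4 of 13 were higher and 5 lower (30.8% and 38.5%, against 16.5% and 34.4% of all genes), or 4 and 3 after median-ratio scaling (against 24.0% and 22.2%). FUNDC1, a receptor on the outer mitochondrial membrane, was at 37.6, 32.5 and 40.6 FPKM in NC24h and at 24.2, 22.0 and 22.2 in NC36h, a change of -0.67 ± 0.09 (limma adjusted p = 0.00219). The related receptors CALCOCO1 and CALCOCO2 went in opposite directions, with changes of 0.53 and -0.64 (adjusted p = 0.00188 and 0.00137).

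Other autophagosome genes were 3 higher and 7 lower of 21 (14.3% and 33.3%, near the 16.5% and 34.4% of all genes), or 5 and 2 after median-ratio scaling (against 24.0% and 22.2% of all genes). RAB33B, a GTPase that binds ATG16L1, was at 19.5, 17.9 and 16.4 FPKM in NC24h and at 7.95, 8.01 and 9.41 in NC36h, a change of -1.0 ± 0.10 (limma adjusted p = 0.000928). SH3GLB1, the membrane-bending endophilin B1, fell by 0.52 (and by 0.34 after median-ratio scaling), and TECPR1 and TMEM41B, a lipid scramblase, rose by 0.62 and 0.56 (adjusted p = 0.00356, 0.00161 and 0.00588). In the list for fusion of autophagosomes with lysosomes, 4 of 14 were lower (28.6%, against 34.4% of all genes). By limma and by voom 0 were higher, also at an unadjusted p under 0.05, where 16.5% of all genes passed as higher by limma. But 4 were higher and 2 lower after median-ratio scaling (against 24.0% and 22.2% of all genes). VPS11 and VPS33A, core subunits of the HOPS tethering complex, fell by 0.46 and 0.38 (adjusted p = 0.00905 and 0.00492), and by 0.29 and 0.22 after median-ratio scaling, where both also passed.

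**Figure D5:**
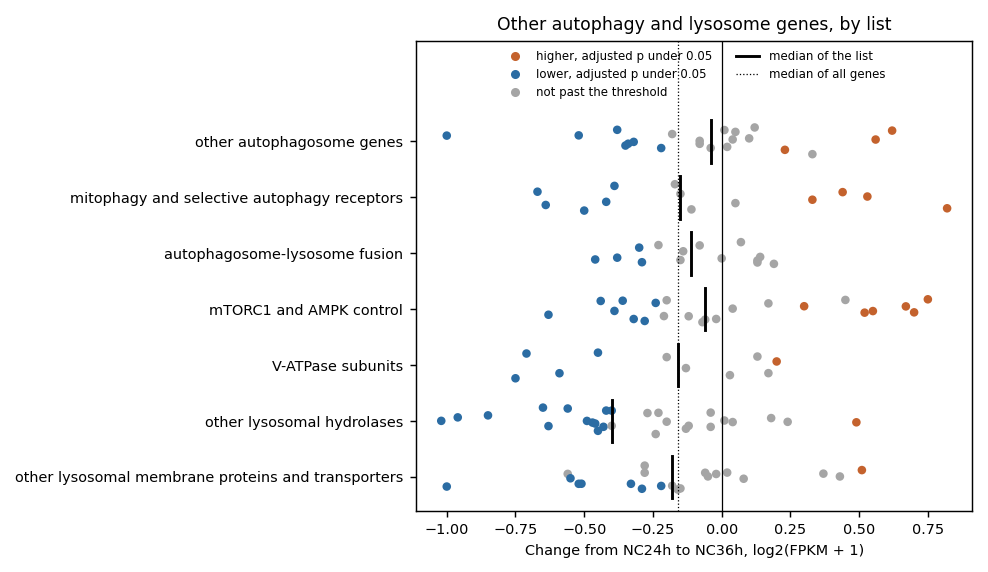
Change from NC24h to NC36h on the log2(FPKM + 1) scale (x axis) of the 128 other tested pathway genes in 7 lists, with 1 point per gene, a thick bar at each list's median and a dotted line at the median of all genes (-0.16). The hydrolase list has its median at -0.40 and 13 of its 27 genes lower, while the other medians lie between -0.18 and -0.04, and all 7 move up under median-ratio scaling, to between -0.22 and 0.11.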

How the data were processed

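RNA-seq of 6 libraries was analysed, 3 of NC24h and 3 of NC36h. The authors used HISAT2 to map paired-end reads to the pig genome (Sscrofa11.1), StringTie for assembly and HTSeq for counting, and deposited them as FPKM per gene and library, with none pooled. The submitters' processing notes name TopHat2, Cufflinks and HTSeq instead. Strandedness and the treatment of shared reads are not given in the sources used here. The number of columns left unused was 0.

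The fragments behind each FPKM value were recovered from the steps within each gene, which gave whole numbers (within 0.02) for all 19543 genes above 0 in at least 3 libraries. Multiples were tried until whole numbers appeared, so this alone does not show that the counts are right. For 175 genes the fragments were then multiplied by a shared factor. In simulated data 96.85% of 2413 genes were recovered exactly. Limits set by fragment counts cover counting error only.

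FPKM values are not counts, so limma 3.58.1 (R 4.3.3) was run on log2(FPKM + 1), two-sided and with a mean-variance trend in eBayes. It took every gene whose mean reached 1 FPKM, with Benjamini-Hochberg adjustment over all of them and a threshold of 0.05. A change on this scale understates that of low genes. Both steps were tested on simulated data.

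Symbols were paired with 11804 of 25322 Ensembl identifiers, and RefSeq gave the Sscrofa11.1 coordinates. The members, roles and lists were chosen with earlier results of these data known. Values of every library were to be given for members past the threshold with a change of at least 0.5, the 5 highest by mean FPKM, the ATG8 family, the MiT/TFE factors and the lysosomal membrane proteins. For each other list the 2 largest rises and the 2 largest falls without overlap were to be named. A gene that falls under this rule is not reported here. Further genes are shown with values of every library, chosen after these were seen. Promoter motifs were planned but not analysed here.

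The alternatives were 2 smaller pseudocounts (0.1 and 0.01), dropping the filter or raising it to 5 FPKM, scaling by median ratio or quantile, eBayes with no trend, a block for the replicate number, leaving out each library in turn, and voom on the recovered fragments.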

Additional observations from a re-analysis of the deposited data

How the results depend on the processing

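Across the alternatives the number of members past the threshold was within 1.5 times 28, except without NC24h replicate 5 and without NC36h replicate 5. Leaving out 1 library gave 16 to 29 members, 7 to 12 of them higher and 9 to 17 lower. Median-ratio scaling gave 6 lower members in place of 15, since it moved all genes up. No member that passed was reversed in any alternative. With the replicate number as a block, 25 members passed (12 higher and 13 lower), of which 23 were among the 28 and the other 2 were ATG4A and CTSZ (adjusted p = 0.0104 and 0.0137). The same-numbered libraries deviated together with correlations of 0.15, -0.02 and 0.18, which did not meet the rule for pairing. Among members that did not pass, the sign turned after median-ratio scaling for BECN1 (0.04), PIK3C3 (0.07), UVRAG (0.12), ATG2B (0.12), ATG16L1 (0.11), NBR1 (0.12), CTSH (0.02), LIPA (0.00) and TPP1 (0.16). It turned after quantile normalization for PIK3C3 (0.06), UVRAG (0.16), ATG2B (0.15), ATG16L1 (0.06), SQSTM1 (-0.03), NBR1 (0.00) and LIPA (0.02). Leaving out 1 library turned it for ATG14 (-0.07 to 0.07), UVRAG (-0.11 to 0.02), SQSTM1 (-0.04 to 0.03), TPP1 (-0.11 to 0.11) and ATG16L1 (-0.11 to 0.02). Without a filter on low values 24 of the 28 calls were kept, without the trend 24, with quantile normalization 23 and with voom 27, and with either smaller pseudocount all 28. Depth limits MITF, CTSS, ATG10, CTSL and GABARAP most, which rested on fewer than 100 fragments per library.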
